A study of Mus musculus with 16 samples.

Results

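The genes described here are those of the cytosolic ribosomal proteins of the mouse, measured by bulk RNA-seq in hematopoietic stem cells (HSCs) of bone marrow. Members were chosen by symbol alone, as Rpl and Rps names with their paralogs plus Rplp0, Rplp1, Rplp2 and Rpsa. Symbols with -ps, which marks pseudogenes, and the S6 kinase genes were left out. Rpl32l is annotated as a processed pseudogene but has no such mark, so it stayed a member. This rule found 85 of the 25239 symbols in the count table, and 82 of them were among the 14124 genes with enough counts to be tested. The cells came from mice aged 4 to 6 months and were either knockout (KO) or wild type (WT) for Selp, which encodes the adhesion receptor P-selectin. The 16 libraries form 6 groups. Cultures with the P-selectin ligand PSGL-1 at 125 ng/mL for 24 hours gave 3 KO and 2 WT libraries. Vehicle cultures, whose duration the labels do not state, gave 3 KO and 3 WT libraries. Freshly isolated cells gave 2 KO and 3 WT libraries. The culture medium held Flt-3 ligand, interleukin-11, stem cell factor and fetal calf serum in every case. The sources do not state how the knockout was made or whether separate mice gave the libraries of a group, so the spread behind each p-value may be technical.

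Each cytosolic ribosome is built from a large and a small subunit, in which ribosomal RNA is held by a fixed set of proteins, mostly 1 copy each. The mRNAs of these proteins are short and abundant, and most begin with a run of pyrimidines, the terminal oligopyrimidine (TOP) tract, through which mTORC1 and the RNA-binding protein Larp1 control their translation. HSCs are known for a low rate of protein synthesis, and in humans loss of 1 copy of several ribosomal protein genes causes Diamond-Blackfan anaemia. RNA-seq measures the mRNA and says nothing of its translation. In bulk samples, fewer cells of a type and less RNA per cell cannot be told apart.

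Library totals lay between 12590539 and 24690824 counts, and CPM below means counts scaled to a common library total. A floor of 3 counts in a library equals 0.122 to 0.238 CPM and covers counting error only. Selp itself lay between 0 and 12.4 CPM in the 8 KO libraries, against 16.8 to 183 CPM in the 8 WT libraries, with no overlap. All 13 listed HSC markers were detected in every group, and so were all 8 listed markers of megakaryocytes and platelets. Detection alone does not show that the cells were pure. The globin genes Hba-a1, Hbb-bs and Hbb-bt and the T cell genes Cd3e, Cd3d and Cd3g were at 0 in all 16 libraries. A pair of libraries touches the results below. WT PSGL-1 replicate 1 had 9035 detected genes, against 11101 to 13480 in the others. KO fresh replicate 1 held the largest ribosomal protein share of all libraries.

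The starts of 7 genes are shown because a TOP tract at the start is the sequence feature these mRNAs are known to share. The windows run from 50 bases before to 30 bases after the RefSeq start (GRCm38.p6), and capitals mark the longest unbroken run of C and T that begins with C, the letters of a TOP tract. Rps6, Rps9, Rpl13, Rps3a1 and Rps19 had lower mRNA in vehicle culture than in fresh cells, while Rps27l and Rpl22l1 are paralogs that did not pass that test; whether their changes differ from those of the 5 was not tested.
Rps6: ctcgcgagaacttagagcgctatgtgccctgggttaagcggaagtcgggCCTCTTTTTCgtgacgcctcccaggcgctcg
Rps9: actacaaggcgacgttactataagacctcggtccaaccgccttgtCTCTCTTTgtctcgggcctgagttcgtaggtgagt
Rpl13: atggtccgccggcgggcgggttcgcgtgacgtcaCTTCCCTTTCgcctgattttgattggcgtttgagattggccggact
Rps3a1: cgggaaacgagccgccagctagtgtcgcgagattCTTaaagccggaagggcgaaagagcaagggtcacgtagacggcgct
Rps19: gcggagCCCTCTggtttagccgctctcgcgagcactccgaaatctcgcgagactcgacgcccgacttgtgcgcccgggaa
Rps27l: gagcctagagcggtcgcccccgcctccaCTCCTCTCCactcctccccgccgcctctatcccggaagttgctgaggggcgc
Rpl22l1: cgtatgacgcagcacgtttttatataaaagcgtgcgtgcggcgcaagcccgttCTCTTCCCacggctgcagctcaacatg
The Rps6 window lies at chr4:86857338-86857417 on the minus strand and the Rps9 window at chr7:3703991-3704070 on the plus strand. The Rpl13 window lies at chr8:123102300-123102379 on the plus strand, the Rps3a1 window at chr3:86142639-86142718 on the minus strand and the Rps19 window at chr7:24884542-24884621 on the plus strand. Rps27l lies at chr9:66946036-66946115 and Rpl22l1 at chr3:28805458-28805537, both on the plus strand.

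Such a run of at least 8 bases was in the window of 36 of the 64 members with a RefSeq entry (56.2%), against 24.0% of 26961 other genes, on the strand of the gene. On the opposite strand it was in 17.2% of members and 25.8% of the others. The letters CTTTCC, which can lie inside such a run, were on the gene's strand in 17.2% of members and 3.8% of the others, and on the opposite strand in 3.1% and 3.3%. The letters CCGGAAG were on either strand in 20.3% of members and 5.0% of the others. Of the 11 members that fell in vehicle culture over both genotypes, 7 had an entry and 4 of these had the run. Rps6 and Rps9 carry it across the annotated start, while the longest run in Rps3a1 has 3 bases. A RefSeq start is an annotation, so a run away from it says nothing of where the mRNA of these cells begins.

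The mRNAs of the 85 genes took between 3.64% and 9.14% of a library's counts. In PSGL-1 cultures the share was 3.64%, 3.66% and 4.55% in the 3 KO libraries and 4.74% and 3.91% in the 2 WT libraries. In vehicle cultures it was 4.38%, 3.99% and 4.09% in KO and 3.79%, 4.01% and 4.94% in WT libraries. In fresh cells it was 9.14% and 4.51% in KO libraries and 6.34%, 5.22% and 4.64% in WT libraries. The KO fresh libraries thus lie on both sides of all WT fresh libraries, and no group is separated from the other groups by this share alone. Mean shares were 3.95% ± 0.522 (SD, n = 3) for KO PSGL-1, 4.33% ± 0.586 (n = 2) for WT PSGL-1, 4.16% ± 0.202 (n = 3) for KO vehicle, 4.25% ± 0.613 (n = 3) for WT vehicle, 6.83% ± 3.27 (n = 2) for KO fresh and 5.40% ± 0.862 (n = 3) for WT fresh. Counts of large subunit genes were 1.35 to 1.58 times those of small subunit genes in every library. Rn45s, the precursor of ribosomal RNA, lay between 5915 and 9057 CPM in the 6 vehicle libraries and between 7285 and 15920.2 CPM in the 5 fresh ones, where it too was highest in KO fresh replicate 1. Its change over both genotypes was -0.66 ± 0.21 log2 units (SE), which did not pass (edgeR adjusted p = 0.0734).

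**Figure D1:**
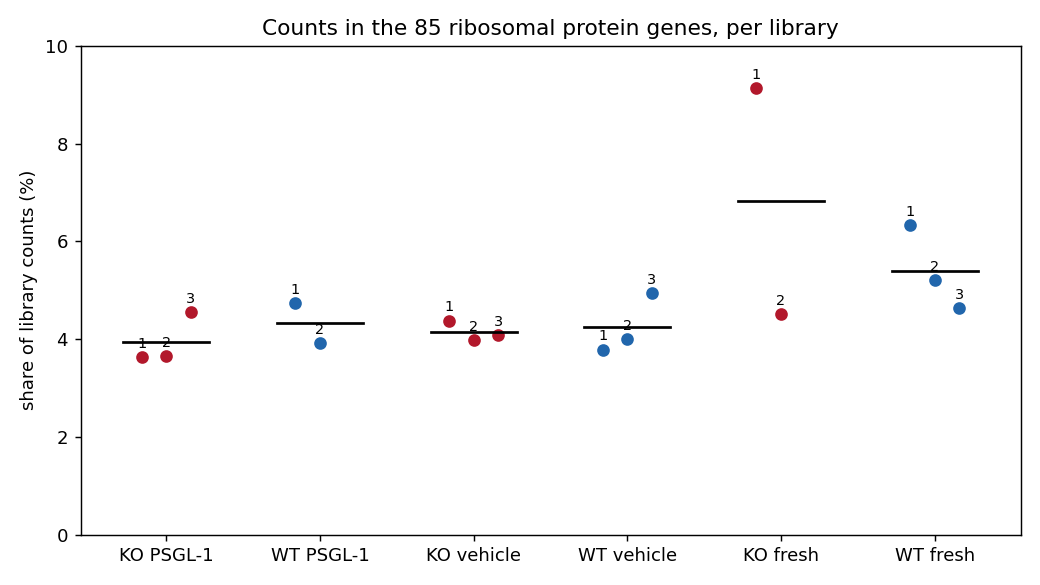
Share of each library's counts in the 85 ribosomal protein genes, in percent, by group, with KO libraries in red, WT libraries in blue, replicate numbers above the points and a bar at the group mean. KO fresh replicate 1 stands at 9.14%, and the 11 cultured libraries lie between 3.64% and 4.94%.

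Per base of transcript, the most abundant members were Rpl13 with 2908 CPM per kilobase over the 16 libraries, Rpl32 with 1896, Rps19 with 1619, Rps14 with 1543 and Rps29 with 1541. All are core proteins of the large or small subunit. The 5 lowest were Rpl26 and Rpl10l, which had 0 counts in all 16 libraries, Rpl3l with 0.0638, Rpl39l with 0.559 and Rpl30 with 5.01 CPM per kilobase. Rpl10l, Rpl3l and Rpl39l are paralogs known from testis or muscle, but Rpl26 and Rpl30 are core genes. These levels depend on the transcript chosen for the length, the shortest principal one, which for Rps20 has 3706 bases.

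Several core genes were almost absent from the counts. Rpl30 had at most 9.10 CPM in any library, Rpl34 at most 21.7 CPM and Rps27 at most 10.3 CPM, while 75 of the 85 members averaged over 100 CPM. Copies of these genes elsewhere in the genome can make their reads ambiguous. Of the words of 50 bases in the transcript of Rps27, 1.4% occur in no other annotated gene, and 28.7% for Rpl26, 23.6% for Rpl30 and 49.4% for Rpl34. Rpl5 with 6.2% and Rpl9 with 13.3% of such words averaged 521 and 628 CPM, though 24.3% of the Rpl5 exons overlap a gene on the other strand. The sources do not state how reads with several matches were treated, so the levels of Rps27, Rpl26, Rpl30 and Rpl34 are uncertain. The part of such reads in these low counts was not tested. All but 3 of the 85 members share words with at least 1 annotated pseudogene.

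Paralogs of core proteins differed in level. Rps27l, a paralog of Rps27 and a p53 target, averaged 245 CPM and lay far above the counts of Rps27. Rpl7l1 averaged 329 CPM, against 897 CPM for its core gene Rpl7. Rpl22l1 averaged 113 CPM, against 165 CPM for Rpl22, whose protein binds and represses the Rpl22l1 mRNA. Rps4l averaged 25.4 CPM, against 762 CPM for Rps4x. Rpl39l was counted in 4 libraries only, at 0.774 and 0.816 CPM in KO vehicle, 2.69 CPM in KO fresh and 0.644 CPM in WT fresh cells. Rpl3l was counted in KO fresh replicate 2 only, at 1.40 CPM.

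The effect of culture was asked by setting vehicle cultures against fresh cells. Over both genotypes together, 11 of the 82 tested members fell and 0 rose, with Rpl13, Rps3a1, Rpl32 and Rpl22 among them. In this comparison 2.3% of all tested genes fell, 4.18% rose and 6.48% changed in either direction (edgeR quasi-likelihood test, p adjusted by Benjamini-Hochberg over the 14124 genes, threshold 0.05). The median member changed by -0.41 log2 units, against -0.07 for all tested genes, and 75 of the 82 members had a negative value. Of the 11, 6 belong to the large and 5 to the small subunit, and the 3 stalk proteins did not pass. With the library set within genotype as a replicate block 2 members passed, Rpl13 among them, where 1.31% of all tested genes fell.

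Sums of marker genes of other cells were set beside this comparison, and only those of T and NK cells did not overlap. The 5 markers of T and NK cells, of which 1 was detected in each vehicle group and 2 in each fresh group, summed to 10.2 to 19.0 CPM in KO vehicle and 15.6 to 21.6 CPM in WT vehicle libraries, against 40.9 to 46.2 CPM in KO fresh and 68.6 to 103 CPM in WT fresh libraries. No vehicle library reached a fresh one. The 8 erythroid markers summed to 12.1 to 39.2 CPM in KO vehicle and 17.2 to 113 CPM in WT vehicle libraries, against 113 to 117 CPM in KO fresh and 97.1 to 259 CPM in WT fresh libraries. These erythroid sums overlap between the conditions. So do those of B and plasma cells, at 14.6 to 62.0 CPM in vehicle and 38.2 to 56.4 CPM in fresh libraries. Sums of granulocytes and monocytes, of endothelial and stromal cells and of megakaryocytes and platelets overlap too. Sums of so few genes do not show how many such cells were present. The part of such cells in the fall of members was not tested.

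Rpl13, the most abundant member, had 1820.2, 1760.4 and 1795 CPM in KO vehicle and 1745, 1654 and 2050.3 CPM in WT vehicle libraries, against 5374 and 2680.1 CPM in KO fresh and 3332, 2709 and 2489 CPM in WT fresh libraries. No vehicle library reached a fresh one, and the change was -0.86 ± 0.17 log2 units (SE), or 0.553-fold (edgeR adjusted p = 0.00616).

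Rps3a1, a small subunit protein, had 1029, 979 and 989 CPM in KO vehicle and 883, 889.8 and 1128 CPM in WT vehicle libraries, against 2519 and 1369 CPM in KO fresh and 1711, 1648 and 1399 CPM in WT fresh libraries. Its change was -0.78 ± 0.17 (edgeR adjusted p = 0.00991) with no overlap. Rpl32 had 829.7, 777 and 769 CPM in KO vehicle and 674, 690.3 and 926 CPM in WT vehicle libraries, against 2495 and 1050.0 CPM in KO fresh and 1520.2, 1278 and 1022 CPM in WT fresh libraries. Its change was -0.90 ± 0.20 (edgeR adjusted p = 0.0143). Rpl22, a large subunit protein whose loss in mice disturbs T cell development, had 142, 133 and 145 CPM in KO vehicle and 129, 116 and 154 CPM in WT vehicle libraries, against 269 and 215 CPM in KO fresh and 264, 191 and 197 CPM in WT fresh libraries. Its change was -0.69 ± 0.16 (edgeR adjusted p = 0.0174).

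The other members that fell were Rps14 by 0.87, Rps19 by 0.86, Rps9 by 0.77, Rpl10a by 0.72, Rps6 by 0.63 and Rpl3 by 0.61 log2 units, with adjusted p between 0.0183 and 0.0442 in edgeR. RPS19 is the gene most often mutated in human Diamond-Blackfan anaemia. Rps19 had 829, 819.5 and 808 CPM in KO vehicle and 708, 713 and 927 CPM in WT vehicle libraries, against 2589 and 981 CPM in KO fresh and 1636, 1216 and 932 CPM in WT fresh libraries. Rps6, the substrate of the S6 kinases, had 691, 582 and 606 CPM in KO vehicle and 546, 582 and 733 CPM in WT vehicle libraries, against 1515 and 818 CPM in KO fresh and 928, 869 and 791 CPM in WT fresh libraries. The CPM of Rps6 does not overlap between the conditions, and that of Rps19 nearly meets, with 927 CPM in the highest vehicle and 932 CPM in the lowest fresh library. On the TMM-scaled CPM described below, both genes overlap between the conditions.

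Much of the size of this fall rests on KO fresh replicate 1, in which 71 of the 82 tested members had their highest level. Without that library, which leaves 1 KO fresh library that is assumed to vary like the other groups, 2 members fell, of which Rpl13 fell by 0.53 (edgeR adjusted p = 0.0263), Rps27l rose by 0.92 (edgeR adjusted p = 0.0404), and the median member changed by -0.01 log2 units. In that fit 1.08% of all tested genes fell and 2.59% rose. On the log2 scale of TMM-scaled CPM, which corrects library totals by the trimmed mean of M values, the 6 vehicle libraries lay wholly below the 5 fresh ones for 5 members, Rpl13, Rps3a1, Rpl32 and Rpl22 among them, and 4.91% of all tested genes did so. Rpl34 alone lay wholly above, as did 4.56% of all tested genes.

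Within each genotype fewer members passed. In KO cells 2 members fell, among them Rpl13 (-1.16 ± 0.25, edgeR adjusted p = 0.0253), and 0 rose, where 1.77% of all tested genes changed and 0.538% fell. The median member changed by -0.66, against -0.02 for all tested genes. Rpl3 had the next smallest p (-0.84, edgeR adjusted p = 0.0630), and the positive members with the smallest p were Rps27l (0.38), Rpl30 (2.02) and Rpl29 (0.89). Without KO fresh replicate 1, 0 members and 0.506% of all tested genes passed in edgeR, and the median member stood at 0.11. With the set within genotype as a replicate block 0 members passed in KO cells.

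In WT cells 0 of the 82 members passed in edgeR, where 1.64% of all tested genes did, and 7 had an unadjusted p under 0.05, where 12% of all tested genes did. DESeq2 called 2 members lower, Rpl22 among them, and 5.64% of all genes. Limma called 0 members and 5% of all genes. The median member changed by -0.16, against -0.07 for all tested genes, and 61 of the 82 were negative. Among the smallest p of negative members were those of Rpl22 (-0.61 ± 0.22) and Rps3a1 (-0.61 ± 0.22), and of positive ones those of Rps27l (0.75 ± 0.31), Rpl7l1 (0.26 ± 0.20) and Rpl30 (2.16 ± 1.72). The difference between the responses of the genotypes was tested directly. No member passed in edgeR, DESeq2 or limma, and 0% of all tested genes passed in edgeR. DESeq2 called 69 of all genes and limma 0. At an unadjusted p under 0.05 there were 0 members and 2.5% of all genes. The median difference, KO minus WT, was -0.46, and without KO fresh replicate 1 it was 0.29. Values of the named members were -0.62 for Rpl13, -0.66 for Rpl35 and -0.47 for Rpl3, and 0.31 for Rpl29 and 0.33 for Rps4l.

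**Figure D2:**
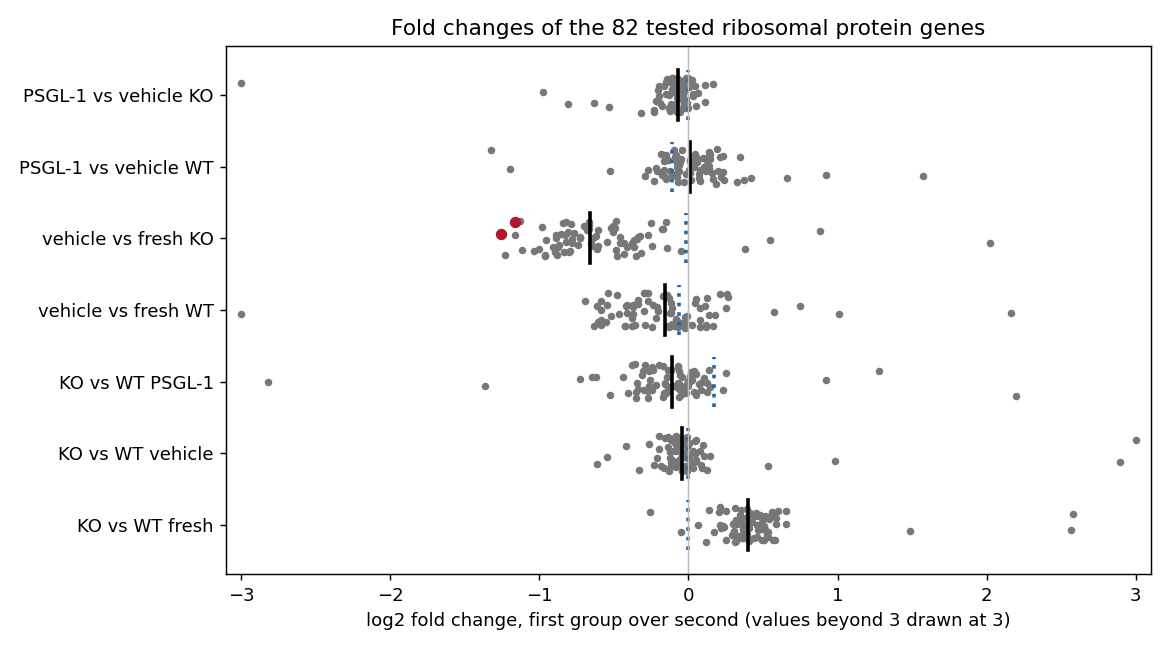
Log2 fold changes of the 82 tested members in 7 comparisons, the first group over the second, 1 point per gene. Members past the edgeR threshold are red, the black bar is the median member and the dotted blue bar the median of all 14124 tested genes. The median member stands at -0.66 in KO culture and at 0.40 in fresh KO against WT cells, both of which use the 2 KO fresh libraries.

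Members did not move as a block. Set against the median member of the same library, a measure that does not change with the level of the whole module, 13 members lay lower in all 6 vehicle libraries than in all 5 fresh ones and 5 lay higher. By the same measure 2.42% of all tested genes lay wholly lower and 6.37% wholly higher. These shares of all genes are not a like background, since the measure removes the variation that members share from members only. On TMM-scaled CPM 5 of the 82 members lay wholly lower, against 4.91% of all tested genes, and 1 wholly higher, against 4.56%. By the relative measure Rpl32 moved by -0.51 log2 units, to a mean of 0.77 above the median member in vehicle cultures, against 1.27 in fresh cells. Rps14 moved by -0.49, Rpl13 by -0.48, Rps3a1 by -0.44 and Rps19 by -0.43. Also on the lower side were Rpl27a, Rps9, Rpl10a, Rpl9, Rpl37a, Rpl23a and Rpl17.

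On the higher side were Rps27l with 0.94, Rpl27 with 0.45, Rps16 with 0.38 and Rpl41 with 0.32 log2 units, beside Rpl34 with 1.17 at its low counts. Rps27l had 271, 240.0 and 257 CPM in KO vehicle and 262, 311 and 277 CPM in WT vehicle libraries, against 268 and 125 CPM in KO fresh and 246, 172 and 123 CPM in WT fresh libraries. In CPM it overlapped between the conditions, and its change of 0.56 ± 0.24 did not pass (edgeR adjusted p = 0.191). Cdkn1a, the cell cycle inhibitor that is also a p53 target, rose by 3.72 ± 0.34 log2 units in the same comparison (edgeR adjusted p = 1.12e-05). Trp53, which encodes p53, rose by 0.45 ± 0.11 (edgeR adjusted p = 0.0226). Mdm2 did not pass. It averaged 41.5 CPM in KO vehicle and 63.9 CPM in WT vehicle libraries, against 61.4 CPM in KO fresh and 66.7 CPM in WT fresh libraries. Whether p53 had a part in these values was not tested.

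**Figure D3:**
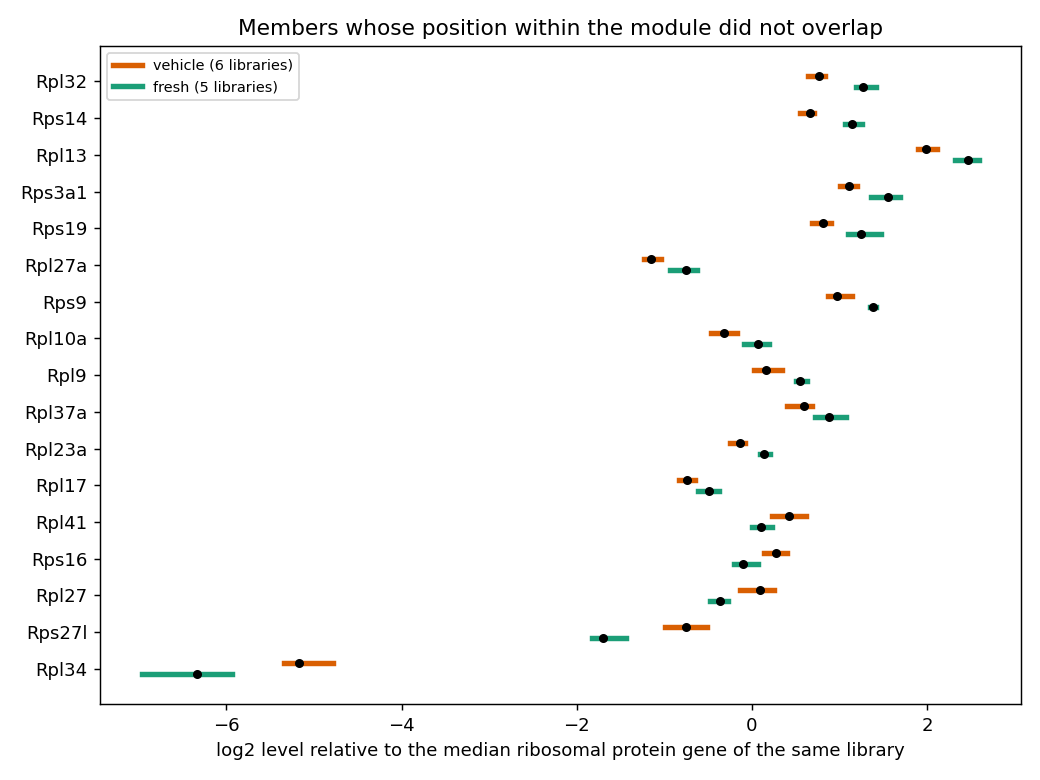
Level of 17 members relative to the median ribosomal protein gene of the same library, in log2 units, in vehicle (orange, 6 libraries) and fresh cells (green, 5 libraries). Bars span the lowest to the highest library and points are means; the 17 are members whose bars do not overlap, with Rpl32 at 0.77 in vehicle and 1.27 in fresh cells.

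Related gene groups were followed in the same comparison of vehicle cultures with fresh cells. Of 37 genes of ribosome biogenesis and RNA polymerase I, 11 rose in vehicle culture over both genotypes and 0 fell, where 4.18% of all tested genes rose, with a median of 0.57. Grwd1, an assembly factor of the large subunit, rose by 1.08 ± 0.18 (edgeR adjusted p = 0.00149), Nhp2, a protein of box H/ACA particles, by 1.12 ± 0.20 (edgeR adjusted p = 0.00252), Nop56, a box C/D protein, by 0.64 ± 0.12 (edgeR adjusted p = 0.00526) and Rrp12 by 1.31 ± 0.28 (edgeR adjusted p = 0.0113). Without KO fresh replicate 1, 5 of the 37 rose and 0 fell. Of 78 mitochondrial ribosomal protein genes none passed in edgeR, with a median of 0.19. Without that library 1 of them rose.

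Among 27 translation factors and other genes named for TOP mRNAs, 3 fell and 2 rose, where 2.3% of all tested genes fell and 4.18% rose, with a median of 0.03. Without KO fresh replicate 1, 2 fell and 2 rose, with a median of 0.25. Eef1a1, the elongation factor that delivers aminoacyl-tRNA, fell by 0.75 ± 0.12 (edgeR adjusted p = 0.00125), Eif4a2 by 0.97 ± 0.20 (edgeR adjusted p = 0.00736) and Eef2, the translocation factor, by 0.61 ± 0.15 (edgeR adjusted p = 0.0192). Eif3b rose by 0.79 ± 0.14 (edgeR adjusted p = 0.00337) and Eif3l by 0.69 ± 0.14 (edgeR adjusted p = 0.00801), both subunits of an initiation factor. None of the 15 genes of TOP and mTORC1 control, Larp1 included, passed. Fau and Rpl36al, which also encode ribosomal proteins but lie outside the rule, did not pass either. Of 17 tested genes of human Diamond-Blackfan anaemia Rps19 alone fell, where 2.3% of all tested genes did, with a median of -0.31. Without KO fresh replicate 1 none of the 17 passed in edgeR, and their median was 0.0076. Rpl5 and Rpl11, which bind and inhibit Mdm2 when free of the ribosome, changed by -0.08 ± 0.18 and -0.46 ± 0.22, and neither passed.

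Members were also set beside other genes of short and of long transcripts. The members are short, with a median transcript of 729 bases, against 2645 bases for all tested genes. Other genes in 2 sets were followed beside them, 490 with transcripts of at most 1000 bases and 874 with over 5000 bases, all averaging over 5 log2 CPM. In KO fresh replicate 1 the median member lay 0.93 log2 units above the mean of fresh WT cells, the short genes 0.62 above it and the long genes at -0.56. In KO fresh replicate 2 they lay at -0.30, -0.22 and -0.01. WT fresh replicate 1 also had both members (0.31) and short genes (0.24) above that mean.

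In culture members and short genes parted. In KO vehicle libraries the median member lay at -0.11, -0.25 and -0.23, while the short genes lay at 0.25, 0.22 and 0.19. In WT vehicle libraries members lay at -0.38, -0.30 and 0.07 and short genes at 0.03, 0.12 and 0.34. In every one of the 11 cultured libraries the median member stood below the median short gene. So it did in KO fresh replicate 2, at -0.30 against -0.22. WT fresh replicates 2 and 3 had the same order, at -0.07 against -0.05 and at -0.25 against -0.18. The gap in these fresh libraries was smaller than in any cultured one. With the length trend of each library taken out, 28 members fell and 1 rose over both genotypes, where 2.78% of all tested genes fell and 4.74% rose.

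**Figure D4:**
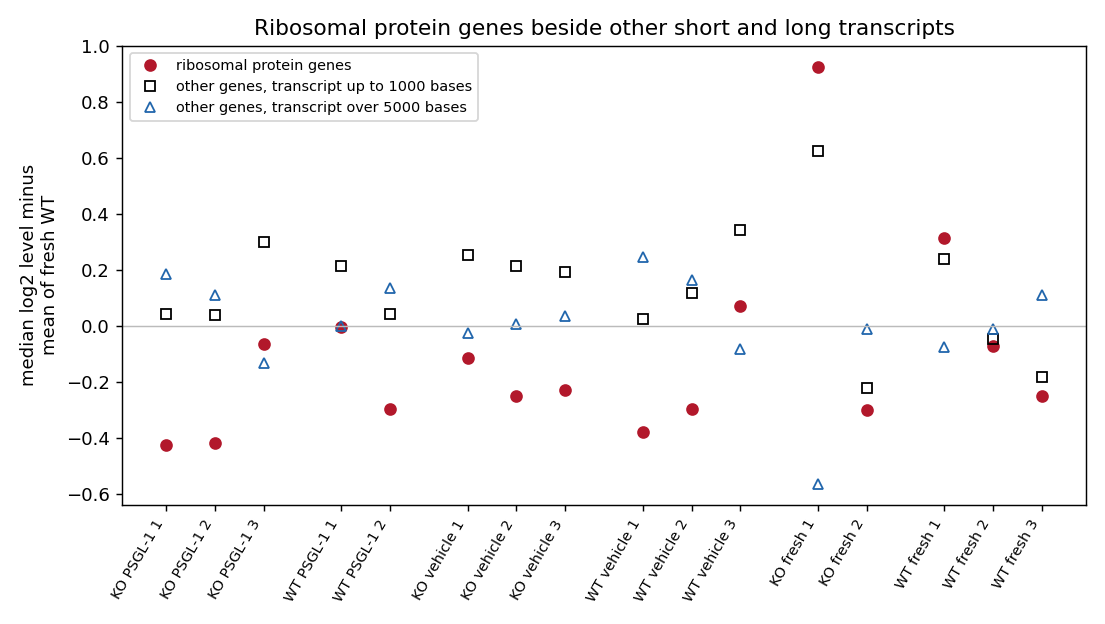
Median log2 level, minus the mean of fresh WT cells, of the tested members (red), of 490 other genes with transcripts of at most 1000 bases (squares) and of 874 other genes with over 5000 bases (triangles) in each library. KO fresh replicate 1 has members at 0.93 and short genes at 0.62. In the 11 cultured libraries members lie below the short genes, and by less also in KO fresh replicate 2 and WT fresh replicates 2 and 3.

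Loss of Selp was asked by setting KO against WT cells within each condition. In no condition did a member pass in edgeR, DESeq2 or limma. Over all genes DESeq2 called 93 in fresh cells, 111 in vehicle and 250 in PSGL-1 cultures, and limma called 7, 3 and 0. In PSGL-1 cultures 0.00708% of all tested genes passed in edgeR, and 1 member and 5.81% of all genes had an unadjusted p under 0.05. The median member stood at -0.11, against 0.17 for all tested genes. In vehicle cultures 0.00708% of all genes passed, 1 member and 2.83% of all genes had an unadjusted p under 0.05, and the median member stood at -0.04. In fresh cells 0.00708% of all genes passed, and 2 members and 2.84% of all genes had an unadjusted p under 0.05. There the median member stood at 0.40 and 80 of the 82 were positive, against 48.8% of all tested genes. Without KO fresh replicate 1 the median was -0.31. Without KO fresh replicate 2 it was 0.88, and 3 members and 0.0468% of all tested genes were called higher. Either fit leaves 1 KO fresh library, whose spread is taken from the other groups.

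In fresh cells the positive members with the smallest p included Rpl29 (2.58 ± 1.00) and Rpl13 (0.58 ± 0.25), and the only negative ones were Rps2 (-0.26 ± 0.30) and Rps15a (-0.05 ± 0.39). In vehicle cultures they were Rpl29 (2.89 ± 0.96), Rpl39l and Rps4l (0.99 ± 1.21) on the positive side and Rps2 (-0.55 ± 0.27), Rpl3 (-0.34 ± 0.19) and Rps15a (-0.42 ± 0.34) on the negative side. Rpl39l was at 0.774, 0.816 and 0 CPM in KO vehicle libraries and at 0 in all 3 WT vehicle libraries, so its fold change is not given. In PSGL-1 cultures they were Rpl29 (2.20 ± 1.08), Rpl22 (0.25 ± 0.24) and Rpl34 (1.28 ± 1.58), and Rpl3 (-0.73 ± 0.21), Rps2 (-0.62 ± 0.30) and Rpl32l (-2.82 ± 1.55). Rpl3, whose yeast counterpart lies near the peptidyl transferase centre, had 746, 746 and 862 CPM in KO PSGL-1 libraries, against 1539.9 and 1037 CPM in WT PSGL-1 libraries. These do not overlap, with an unadjusted p of 0.00412 and an edgeR adjusted p of 0.765.

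Averaged over the 3 conditions 0 members passed in edgeR or limma, where 0.0354% of all tested genes did in edgeR, and 3 members and 6.84% of all genes had an unadjusted p under 0.05. DESeq2 called 1 member, Rpl29, and 1.71% of all genes. The median member stood at 0.10, against 0.07 for all tested genes. Rps2, a small subunit protein at the mRNA entry, stood at -0.47 ± 0.17 and Rpl3 at -0.31 ± 0.12, and Rps6 (0.20) and Rpl22 (0.17) followed Rpl29 on the positive side. Rps2 had 1016, 705 and 854 CPM in KO PSGL-1 against 1317 and 1299.9 CPM in WT PSGL-1 libraries, 1316, 763 and 684 CPM in KO vehicle against 1027, 1312 and 1632 CPM in WT vehicle libraries, and 1291 and 799.6 CPM in KO fresh against 1449, 1189.7 and 1289 CPM in WT fresh libraries. Only in PSGL-1 cultures did the libraries of the genotypes not overlap.

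Rpl29, a large subunit protein at chr9:106428889-106431568 (mm10), stood first among the positive members in each condition and was followed by library number after its values were seen. In PSGL-1 cultures it had 237, 19.2 and 241 CPM in KO libraries, against 52.5 and 19.5 CPM in WT libraries. In vehicle cultures it had 312, 19.8 and 287 CPM in KO libraries, against 27.2, 29.7 and 25.5 CPM in WT libraries. In fresh cells it had 28.7 and 209 CPM in KO libraries, against 24.1, 16.7 and 18.4 CPM in WT libraries. So 5 KO libraries stood at 209 CPM or more, while 3 KO libraries lay within the WT range of 16.7 to 52.5 CPM. Over all conditions the value was 2.56 ± 0.59, and it did not pass (edgeR adjusted p = 0.334).

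The 3 low KO libraries carry the numbers 10, 11 and 12 in the labels, and the 5 high ones the numbers 5, 6, 16, 17 and 18. Rps18-ps4, a processed copy of Rps18 that is not a member, was also split by these numbers. It stood at 0.0645 and 0.234 CPM in KO libraries 5 and 6 and at 0.238, 0.315 and 0.337 CPM in WT libraries 7, 8 and 9, and between 27.6 and 88.8 CPM in the other 11. Rps18 itself ranged from 361 to 1261 CPM and did not follow this pattern. The labels do not say what the numbers stand for. Rpl29 shares words of 50 bases with 81 annotated pseudogenes, and 21.5% of its words occur in no other gene.

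**Figure D5:**
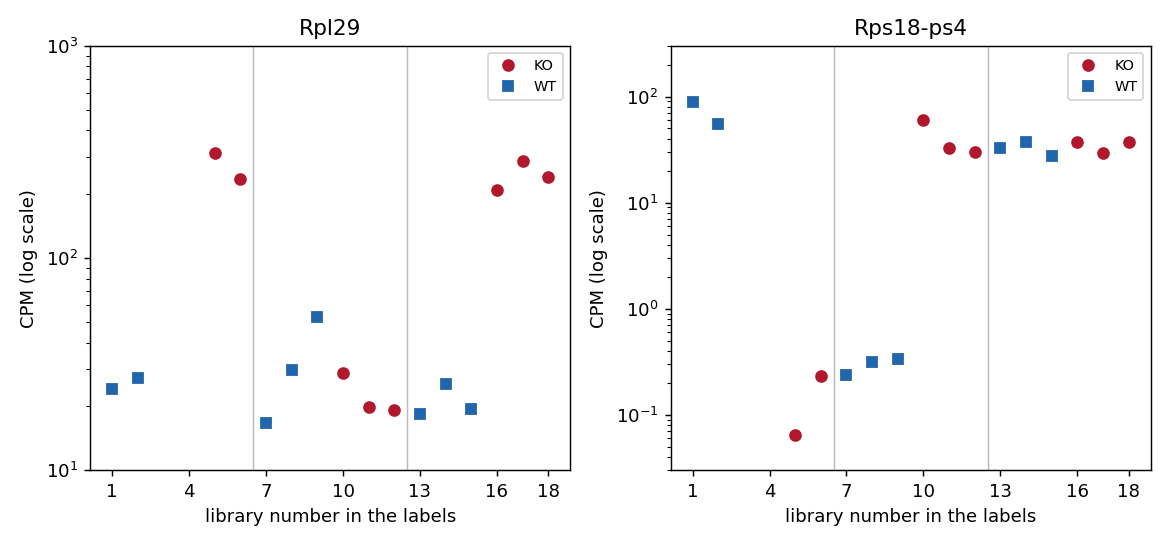
CPM on a log axis of Rpl29 (left) and Rps18-ps4 (right) against the library number in the labels, with KO libraries as red circles and WT libraries as blue squares; grey lines part the numbers 1 to 6, 7 to 12 and 13 to 18. Rpl29 is at 209 CPM or more in KO libraries 5, 6, 16, 17 and 18 and at 52.5 CPM or less in the other 11.

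The effect of PSGL-1 was asked by setting PSGL-1 cultures against vehicle cultures. In KO cells 0 members and 0% of all tested genes passed in edgeR. No member passed in DESeq2, which called 41 of all genes, or in limma, which called 0. At an unadjusted p under 0.05 there were 0 members and 1.4% of all genes. The median member stood at -0.07, against -0.00074 for all genes. The smallest p belonged to Rpl39l, at 0 in all 3 KO PSGL-1 libraries and at 0.774, 0.816 and 0 CPM in KO vehicle libraries, with an unadjusted p of 0.0938 (edgeR adjusted p = 1). Rpl4 (-0.20 ± 0.18) and Rpl6 (-0.23 ± 0.21) followed, and on the positive side stood Rps27l (0.11 ± 0.31), Rps15a (0.11 ± 0.34) and Rpl22 (0.06 ± 0.22).

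In WT cells 0 members and 0% of all tested genes passed in edgeR. No member passed in DESeq2, which called 229 of all genes, or in limma, which called 0. At an unadjusted p under 0.05 there were 0 members and 5.69% of all genes. The median member stood at 0.01, against -0.11 for all genes. Members with the smallest p were Rps21 (-0.53 ± 0.40), Rps16 (-0.27 ± 0.26) and Rpl36 (-0.29 ± 0.30), and Rpl3 (0.32 ± 0.22), Rpl22l1 (0.42 ± 0.36) and Rpl32l (1.57 ± 1.52). The 2 WT PSGL-1 libraries include the sparse one, which alone held 16.6 CPM of Rpl32l, against 0.703 to 5.92 CPM in the other 15.

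The difference between these responses, KO minus WT, passed for 0 members and 0% of all tested genes in edgeR. It passed for 0 members in DESeq2, which called 118 of all genes, and in limma, which called 0. At an unadjusted p under 0.05 there were 0 members and 4.33% of all genes. The median member stood at -0.09, and named members stood at 0.43 (Rps21), 1.49 (Rpl34), 0.20 (Rpl22), -0.65 (Rpl22l1), -0.39 (Rpl3) and -0.37 (Rpl6). Both tests of PSGL-1 use the vehicle libraries that also enter the culture comparisons.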

How the data were processed

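The authors deposited raw read counts per gene symbol, 1 column per library. RNeasy Plus Micro columns and full-length cDNA from the SMART Ultra-Low Input kit v4 are stated per the labels' protocols. The submitters' processing notes name STAR 2.7.5c, featureCounts, MultiQC 1.10, DESeq2 and mm10. Neither source states the gene models, whether strand was used, or how reads matching several places were counted.

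Counts were filtered with filterByExpr by group, scaled by TMM and fitted with edgeR 4.0.16 (robust quasi-likelihood test, R 4.3.3) in 1 model of all 16 libraries with 1 mean per group. P-values were adjusted by Benjamini-Hochberg over the 14124 genes tested, with a threshold of 0.05. A standard error is the absolute log2 fold change divided by the square root of F. CPM use the library total, and SDs are over the libraries of a group. Of the 11 comparisons, 9 were planned, and the averages over both genotypes and over 3 conditions were added after the data were seen. Members, lists and markers were chosen with earlier results of these data known. Named members are all those past the threshold and, where fewer than 3 passed, the 3 with the smallest p in each direction, then the 5 highest and lowest per length, the paralogs, and up to 4 genes past the threshold in each list. Rpl39l is given by its levels, since whole groups have 0 counts. Lists are described by counts and medians. A member and a gene outside the rule stay in the fits and counts but are not reported here by name. Transcript lengths, words of 50 bases and exon overlaps come from GENCODE M21 (GRCm38, the same assembly as mm10), where all 85 members matched. Coordinates come from RefSeq, and so do the starts (64 of 85 matched). No pair of libraries in a group agreed within sampling noise: the lowest chi-square per degree of freedom was 59.8. The fits were tested on simulated data with 1 spread for all genes, so their power to call changes in these data was not tested. Alternatives were DESeq2 1.42.0, limma 3.58.1 with library quality weights, other scalings and filters, fits of fewer libraries, replicate blocks and, chosen after seeing the data, a length offset and a block of library set within genotype.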

Additional observations from a re-analysis of the deposited data

How the results depend on the processing

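How many members fell in vehicle culture depended on the setting, and the cause was not tested. Over both genotypes 11 passed in edgeR, all lower, against 30 in DESeq2, 19 in limma (18 lower and 1 higher), 20 with library totals in place of TMM, 21 without a filter, 17 when the sparse WT PSGL-1 replicate 1 was omitted, and 29 with a length offset (28 lower and 1 higher). Leaving out 1 library gave 3 to 38: 3 (2 lower and 1 higher) without KO fresh replicate 1, 38 without KO fresh replicate 2, 6 without WT vehicle replicate 1 or KO vehicle replicate 1, and 7 without WT fresh replicate 1, WT vehicle replicate 2 or KO vehicle replicate 2. In KO culture, against 2, there were 21 in DESeq2, 7 in limma, 5 with RLE factors or library totals, 6 without a filter or without the sparse library, 13 with a length offset and 0 with only the groups compared. Leaving out a library there gave 0 (KO fresh replicate 1, or any KO vehicle library) to 39 (KO fresh replicate 2). In WT culture, against 0, there were 2 in DESeq2 and 7 with a length offset. Calls over all genes changed as well. Over both genotypes they were 915 in edgeR, 1780 in DESeq2, 1896 in limma and 1062 with a length offset. Library totals gave 898 and no filter 863. In KO culture they were 250 in edgeR, 831 in DESeq2, 542 in limma and 369 with a length offset. There RLE factors gave 256, library totals 248 and no filter 244. In WT culture they were 231 in edgeR, 797 in DESeq2 and 319 with a length offset. Over all genes the 915 calls for both genotypes ranged from 552 to 1896, and RLE factors or library totals moved their median from -0.07 to -0.13.

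Replicate numbers were not taken to pair libraries. Correlations of same-numbered deviations ran from -0.04 to 0.19 for title numbers and from -0.05 to 0.16 for library sets. Several of them rest on 2 pairs, which are too few to decide whether libraries pair. Rpl29 and Rps18-ps4 split by runs of library numbers within genotype, and whether such libraries share a source was not tested. With the library set as a replicate block 0 members passed in KO culture, and with the set within genotype 0 there and 2 over both genotypes. Rpl29 in the difference between culture responses was 0.31 with no block, -0.64 with title numbers, -0.0841 with the library set and -0.56 with the set within genotype as replicate block. Rps15a in KO against WT fresh cells was 0.0092 with the library set block.

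Ranges over omitted libraries follow. Members past the threshold ran from 0 to 3 for KO against WT in fresh cells (3 without KO fresh replicate 2). Without WT PSGL-1 replicate 2, where the sparse library stands alone and is assumed to vary like the other groups, they reached 3 for KO against WT over all conditions, 2 in PSGL-1 cultures, 1 for PSGL-1 in WT cells and 1 for the difference between PSGL-1 responses, against 0 at the lowest. DESeq2 called 1 over all conditions. The median member ran from -0.31 to 0.88 for KO against WT fresh, -1.11 to 0.11 for KO culture, -0.65 to -0.0081 for culture over both genotypes and -0.89 to 0.29 for the difference between culture responses, each with its extremes at the KO fresh libraries. In that difference Rpl29 ran from -0.48 to 2.27, Rpl13 from -1.04 to 0.0722, Rpl35 from -1.14 to 0.15 and Rps4l from -0.17 to 1.18. For KO against WT fresh, Rpl13 ran from -0.11 to 1.02, Rps2 from -0.73 to 0.0767 and Rps15a from -0.85 to 0.43. Rps27l ran from -0.0796 to 1.11 in KO culture. With PSGL-1 in KO cells Rps27l ran from -0.18 to 0.28, Rps15a from -0.15 to 0.32 and Rpl22 from -0.025 to 0.12, and limma gave -0.0953 for Rps27l and -0.0931 for Rps15a. With PSGL-1 in WT cells Rpl32l ran from -0.25 to 2.33, with -0.25 when the sparse library was omitted. Without the 5 most abundant members the mean share was 3.31% in KO PSGL-1, 3.64% in WT PSGL-1, 3.47% in KO vehicle, 3.57% in WT vehicle and 4.40% in WT fresh libraries. Of 1864 alternative values, 1712 were classed as unchanged. Single members had to keep their direction and side of the threshold, and medians and shares to move by less than the spread. Counts of members past the threshold, 188 of the 1712, had to stay at 0 or within a set ratio of the reported count.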
